A study of Mus musculus with 10 samples.

Results

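The CD300 receptors are a family of immunoglobulin-like membrane proteins, and their genes were followed here in injured mouse muscle with and without miR-501. The 7 genes described, Cd300a, Cd300c2, Cd300lb, Cd300ld, Cd300ld3, Cd300lf and Cd300lg, are 7 of the 12 CD300 genes counted and of 25700 genes counted in all. They were chosen by measured values of these mice: the family was picked because Cd300ld3 was lower in every mouse of the deleted group. The difference of Cd300ld3 between the genotypes is therefore what selected the set and is given as a description, as are the genotype differences of the other members. Tibialis anterior (TA) muscle was taken from 5 Pax7Cre and 5 miR-501KO mice, all C57BL/6 males of 12 weeks, at day 6 after an injection of cardiotoxin, a snake toxin that destroys muscle fibers and starts their regeneration. Both groups carry the Pax7Cre allele, a non-inducible Cre recombinase driven from Pax7, the gene that marks muscle stem cells, and the miR-501KO mice also carry miR-501fl/Y, an X-linked miR-501 gene with loxP sites around its precursor. The labels name the genotypes wild type and miR-501 -/-. Such a Cre recombines DNA in the myogenic lineage, whereas the members of this family are known mainly from blood and vessel cells. The RNA was that of the whole muscle, so that fewer cells of a type and less RNA per cell cannot be told apart.

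Most CD300 receptors sit on myeloid cells, such as macrophages, dendritic cells and mast cells, and bind lipids that dying cells expose, among them phosphatidylserine and phosphatidylethanolamine. Members come as opposed pairs with similar outer domains. Inhibitory members carry tyrosine motifs in a long tail that recruit the phosphatases SHP-1 and SHP-2, whereas activating members have a short tail and signal through partner proteins such as DAP12, the product of Tyrobp, or the Fc receptor gamma chain, the product of Fcer1g. In injured muscle, macrophages clear the dead fibers and make up much of the infiltrate, and endothelial cells rebuild the capillaries.

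The genes lie on chromosome 11 of the mouse genome (GRCm38). Cd300a runs on the plus strand at chr11:114890041-114904654, followed on the minus strand by Cd300lb at chr11:114922781-114934386, Cd300ld at chr11:114982274-114989922, Cd300c2 at chr11:114996721-115001880, Cd300ld3 at chr11:115042131-115048409 and Cd300lf at chr11:115116214-115133992. Between them lie Cd300c, Cd300ld2, Cd300ld4, Cd300ld5 and Cd300e, the other 5 CD300 genes counted. Cd300lg stands apart from this cluster, on the plus strand at chr11:102041509-102055620. Cd300lf overlaps Rab37, which runs on the other strand, and Cd300lb overlaps the gene model Gm11699. The libraries were stranded, but the strand setting of the counting was not given in the sources used here.

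Cd300ld3, the gene on which the set was chosen, has a pair of near-copies beside it, Cd300ld4 and Cd300ld5. The annotated transcripts of all 3 are 852 bases long. Cd300ld3 differs from Cd300ld4 at 10 bases (98.8% identical) and from Cd300ld5 at 9 (98.9%), and its longest run identical to Cd300ld5 is 708 bases. Cd300ld4 and Cd300ld5 differ at a single base (99.9% identical). The first 40 coding bases are printed because they hold nearly all the coding differences of Cd300ld3. They are read on the minus strand from GENCODE M21 and GRCm38, at chr11:115048256-115048295, chr11:115026859-115026898 and chr11:115037616-115037655, and capitals mark the bases at which Cd300ld3 differs from the other two.
Cd300ld3: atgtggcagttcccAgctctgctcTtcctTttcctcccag
Cd300ld4: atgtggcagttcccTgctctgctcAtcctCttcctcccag
Cd300ld5: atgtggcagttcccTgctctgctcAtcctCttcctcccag
Counted from the first base of the start codon and written with the base of Cd300ld3 first, the substitutions are A15T, T25A and T30C. Over the 738 coding bases these 3 are the only differences between Cd300ld3 and Cd300ld5, and A447G is the only further one between Cd300ld3 and Cd300ld4.

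The libraries were read as single reads of 100 bases, so the exons of each gene were cut into every stretch of 100 bases and looked up in the exons of all other annotated genes. Of the 753 stretches of Cd300ld3, 609 (80.9%) also occurred in another gene and 144 were its own. Cd300ld4 had 100 stretches of its own and shared 86.7%, whereas Cd300ld5 shared 100% and had 0 of its own, although 40 to 122 reads were counted for it in each mouse. The next gene of the row, Cd300ld2, shared 16.2%. For the other 6 members the shares were small: 3.23% for Cd300c2 and 0.849% for Cd300a, which have 41 stretches in common, 1.37% for Cd300ld and 0.644% for Cd300lf, which have 35 in common, and 0 for Cd300lb and Cd300lg. How reads that match several genes were counted was not given in the sources used here, and its part in the values of Cd300ld3, Cd300ld4 and Cd300ld5 was not tested.

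**Figure D1:**
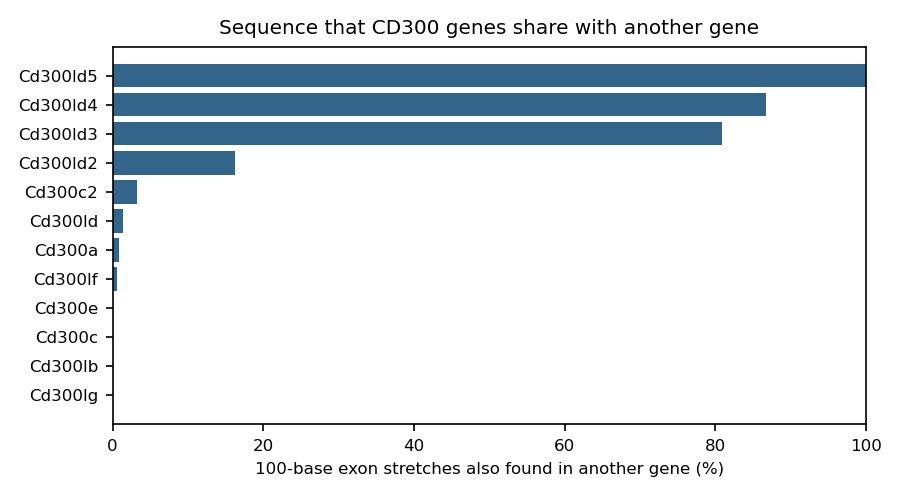
The bars give, for each of the 12 CD300 genes, the percent of its 100-base exon stretches that also occur in the exons of another annotated gene. Cd300ld5 (100%), Cd300ld4 (86.7%) and Cd300ld3 (80.9%) stand apart from Cd300ld2 (16.2%) and from the other 8 genes, all at 3.23% or less.

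The promoters of the same genes are also near-copies. Promoter sequences came from RefSeq (GRCm38.p6), as 250 bases before to 50 bases after each start, and 10 of the 12 genes had an entry. Those of Cd300ld4 and Cd300ld5 are identical, and that of Cd300ld3 differs from them at 15 of 300 bases (95% identical). The purine-rich word GAGGAAGT, which belongs to the type of site bound by PU.1, a transcription factor of myeloid cells, was searched on both strands. It stood in 5 of the 10 promoters and in 3.2% of all promoters in the table (1052 of 32851). It lay on the strand of the gene, 187 bases before the start in Cd300ld3, Cd300ld4 and Cd300ld5, 143 bases before it in Cd300ld and at the start itself in Cd300lf. A match is a description of the letters and not a bound site, and the 3 near-copies are not separate examples. The windows below show this shared word, in capitals, in Cd300ld (chr11:114990017-114990131), Cd300ld3 (chr11:115048468-115048575) and Cd300ld4 (chr11:115027071-115027178), all on the minus strand.
Cd300ld: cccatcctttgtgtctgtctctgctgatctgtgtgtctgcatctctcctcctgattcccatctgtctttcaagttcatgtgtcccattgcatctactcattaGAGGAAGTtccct
Cd300ld3: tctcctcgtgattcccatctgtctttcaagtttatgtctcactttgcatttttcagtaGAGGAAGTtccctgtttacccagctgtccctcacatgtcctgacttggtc
Cd300ld4: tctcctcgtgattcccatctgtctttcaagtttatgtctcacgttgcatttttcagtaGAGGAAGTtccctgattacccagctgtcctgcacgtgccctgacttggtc
In this window of 108 bases Cd300ld3 differs from Cd300ld4 at 6 bases, and Cd300ld5 has the same letters as Cd300ld4.

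Each mouse had between 18609222 and 24753258 counts, and 14410 genes, all 12 CD300 genes among them, passed a filter on low counts. Levels are given as CPM, the counts of a gene per 1000000 counts of its mouse, after scaling by TMM, which sets most genes equal between mice. The muscle carried the cell types that the family is known from: all 15 macrophage markers and all 12 endothelial markers fixed as lists passed the filter. Macrophage markers summed to 6075 to 8487 CPM in Pax7Cre and 6389 to 7517 CPM in miR-501KO mice, and endothelial markers to 833 to 1087 CPM and 843 to 1044 CPM. Of the lymphocyte lists, 2 of 6 B cell markers and 6 of 6 T and NK cell markers passed. Pax7Cre mouse 2 had the highest mature fiber genes, with a score (mean log2 CPM) of 12.03 against 10.4 to 11.65 in the other 9 mice. The deletion was not checked on miR-501 itself, since counts of its gene were not used here.

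Compared per length of exon, the level of a CD300 gene spanned a wide range. Cd300c2, an activating receptor, was the most abundant member, with 39.0 ± 5.64 RPKM (CPM per kilobase of exon, mean ± SD over 10 mice), and it was above the next gene in 10 of 10 mice. Cd300lg, the endothelial member also called nepmucin, followed with 13.0 ± 3.04 RPKM, Cd300a with 12.0 ± 1.17 RPKM, Cd300ld with 11.1 ± 1.28 RPKM and Cd300lb with 8.30 ± 1.41 RPKM. The order of these neighbours did not hold throughout: Cd300lg was above Cd300a in 7 of 10 mice and Cd300a above Cd300ld in 8, whereas Cd300ld was above Cd300lb in 10. Below a step that again held in 10 of 10 mice came Cd300ld5, Cd300c, Cd300ld3 and Cd300ld4, with means of 3.38, 2.89, 2.72 and 2.65 RPKM. The levels of Cd300ld3, Cd300ld4 and Cd300ld5, and their order, may depend on how reads that match several genes were counted, which was not given. The place of Cd300ld3 went with genotype, as its choice implies: it lay above Cd300ld4 in 4 of 5 Pax7Cre and 1 of 5 miR-501KO mice, and above Cd300c in 4 and 1. Its mean was 3.28 RPKM in Pax7Cre and 2.16 RPKM in miR-501KO mice, the latter next to Cd300lf with 2.19 RPKM. Over all mice Cd300lf followed with 2.13 ± 0.421 RPKM, and Cd300ld2 and Cd300e were the lowest with 0.967 and 0.468 RPKM. With the longest annotated transcript in place of all exons as the length, 9 of the 11 neighbouring pairs kept their order. Cd300c then rose to 4.40 RPKM and Cd300lf to 2.79 RPKM.

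Among the inhibitory members, Cd300a, a receptor for phosphatidylserine and phosphatidylethanolamine, had 64.8, 52.2, 61.5, 59.1 and 57.7 CPM in Pax7Cre mice 1 to 5 and 54.7, 64.0, 51.1, 51.8 and 49.7 CPM in miR-501KO mice 1 to 5. The groups overlapped, with miR-501KO mice 1 and 2 above the lowest control. The means were 59.1 ± 4.66 and 54.2 ± 5.72 CPM (SD over 5 mice each), and the log2 fold change was -0.12 (SE 0.085). Cd300lf, an inhibitory receptor that also serves mouse norovirus for entry, had 12.5, 9.87, 6.45, 12.8 and 11.7 CPM in the controls and 13.4, 12.6, 9.95, 8.79 and 11.6 CPM in the deleted mice. Its lowest value, in Pax7Cre mouse 3, and its highest, in miR-501KO mouse 1, lay around a common range, and the log2 fold change was 0.08 (SE 0.175).

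Of the activating members, Cd300lb, which signals through DAP12, had 20.7, 17.0, 20.2, 28.2 and 24.3 CPM in Pax7Cre and 28.9, 29.1, 25.7, 26.1 and 22.0 CPM in miR-501KO mice. It had the highest fold change of the 7, with means of 22.1 ± 4.30 and 26.3 ± 2.89 CPM and a log2 fold change of 0.25 (SE 0.127), and the groups overlapped, with Pax7Cre mice 4 and 5 above the lowest deleted mouse. Cd300ld, a receptor that pairs with the Fc receptor gamma chain, had 30.5, 26.7, 36.0, 30.6 and 27.1 CPM against 28.1, 31.6, 30.4, 27.8 and 23.5 CPM. The groups overlapped over most of their range, with a log2 fold change of -0.09 (SE 0.101). Cd300c2 had 64.7, 42.6, 45.8, 48.7 and 47.0 CPM against 52.5, 59.9, 45.2, 46.3 and 45.0 CPM. Pax7Cre mouse 1 was the highest of all 10, the group means were both 49.8 CPM (SD 8.66 and 6.43), and the log2 fold change was -0.00024 (SE 0.119).

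Cd300ld3 had 2.91, 2.37, 3.01, 3.33 and 2.35 CPM in Pax7Cre mice 1 to 5 and 1.48, 2.03, 1.92, 1.91 and 1.86 CPM in miR-501KO mice 1 to 5. The groups did not overlap, which is what the choice of the set rests on, and the values nearest to each other were 2.35 CPM in Pax7Cre mouse 5 and 2.03 CPM in miR-501KO mouse 2. The means were 2.80 ± 0.424 and 1.84 ± 0.210 CPM (SD over 5 mice each). The fitted log2 fold change was -0.61 (SE 0.159), a change of -34.4%. These levels rest on few reads: 65, 45, 57, 83 and 48 in the controls and 37, 43, 46, 36 and 44 in the deleted mice. As raw counts the groups overlapped by a single pair of mice, 45 in Pax7Cre mouse 2 and 46 in miR-501KO mouse 3. The exact 95% Poisson interval, which covers counting error only, ran from 1.73 to 3.12 CPM for Pax7Cre mouse 5 and from 1.47 to 2.73 CPM for miR-501KO mouse 2, so that the mice closest across the genotypes could not be separated at this depth. Counting alone would give a coefficient of variation of 13.0% in the controls and 15.6% in the deleted mice, and the observed ones were 15.2% and 11.4%.

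**Figure D2:**
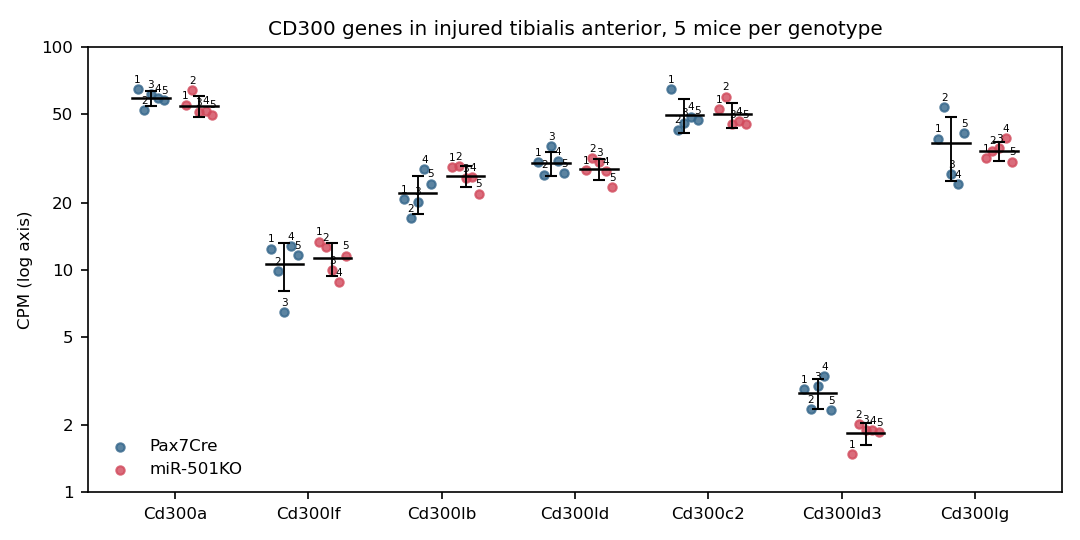
Each point is a mouse, numbered as in the labels, with its CPM on a log axis for the 7 genes; lines are the mean of 5 mice and bars the SD. The genotypes overlap for all genes but Cd300ld3, where Pax7Cre mice lie at 2.35 to 3.33 CPM and miR-501KO mice at 1.48 to 2.03 CPM.

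In the near-copies the genotypes overlapped. Cd300ld4 had 2.60, 1.58, 1.11, 3.13 and 2.64 CPM in the controls and 2.40, 1.37, 2.87, 2.17 and 2.67 CPM in the deleted mice, with a log2 fold change of 0.05 (SE 0.275). Cd300ld5 had 2.73, 2.11, 2.22, 4.89 and 2.94 CPM against 1.72, 2.83, 2.96, 3.02 and 3.35 CPM, with a log2 fold change of -0.12 (SE 0.247). All deleted mice lay within the range of the controls for Cd300ld4, and 4 of 5 did for Cd300ld5. Because a read from one of these genes can match another, their counts were also summed, a step added after the values were seen. The sum was 8.24, 6.07, 6.34, 11.4 and 7.93 CPM in Pax7Cre and 5.60, 6.23, 7.75, 7.10 and 7.88 CPM in miR-501KO mice. The groups overlapped in the sum, and Pax7Cre mouse 4 stood above the other 9 mice. The means were 7.99 ± 2.11 and 6.91 ± 0.981 CPM, and the log2 fold change was -0.22 (SE 0.172), against -0.61 for Cd300ld3 alone. Without Pax7Cre mouse 4 the fold change of the sum was -0.05, and that of Cd300ld3 alone was -0.54.

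Expressed as a share of the counts of the 3 genes, Cd300ld3 made up 36.2% ± 7.54 in Pax7Cre (29.3% to 47.5%) and 26.9% ± 3.45 in miR-501KO mice (23.7% to 32.6%). The genotypes overlapped in this share, with 4 of 5 deleted mice below all controls. At the depth of a single mouse the share was loosely set: it was 29.3% of 283 counts in Pax7Cre mouse 4, with a 95% Wilson interval of 24.3% to 34.9%, and 32.6% of 132 counts in miR-501KO mouse 2, with 25.2% to 41.0%.

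**Figure D3:**
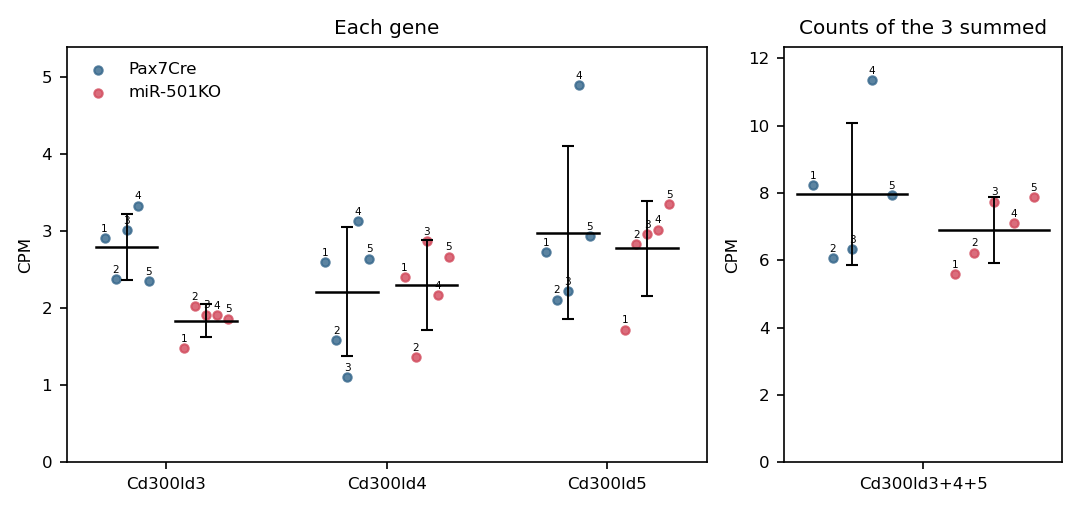
CPM of Cd300ld3, Cd300ld4 and Cd300ld5 (left) and of their summed counts (right) in each numbered mouse, with the mean and SD of 5 mice per genotype. The genotypes are apart for Cd300ld3 alone and overlap for Cd300ld4, Cd300ld5 and the sum (6.07 to 11.4 CPM in Pax7Cre, 5.60 to 7.88 CPM in miR-501KO).

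Cd300lg, the endothelial member, had 38.7, 53.6, 26.8, 24.2 and 41.1 CPM in Pax7Cre and 31.8, 34.3, 35.2, 39.0 and 30.6 CPM in miR-501KO mice. All deleted mice lay inside the range of the controls, which was wide: its highest value was in Pax7Cre mouse 2, the mouse with the highest mature fiber score, and its lowest in Pax7Cre mouse 4, with the lowest. The means were 36.9 ± 11.8 and 34.2 ± 3.29 CPM, with a log2 fold change of -0.11 (SE 0.181). Of the 12 endothelial markers, 1 had a log2 fold change above 0 and 11 below, between -0.13 and 0.01. The coefficient of variation was 32.1% in the controls and 9.63% in the deleted mice, where counting alone would give 3.61% and 3.62%.

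Across the 7 members, 2 had a positive and 5 a negative log2 fold change, with a median of -0.09, against a median of -0.0042 over all 14410 genes tested, of which 52.1% were below 0. In 1 of the 7, Cd300ld3, all deleted mice lay below all controls, as in 0.0763% of all genes, and in 0 of 7 did all lie above, as in 0.0625% of all genes. By edgeR's quasi-likelihood test, 1 of 7 had an unadjusted p under 0.05 and was lower, again Cd300ld3 (0.666% of all genes), and 0 of 7 were higher (0.382% of all genes). Since the set was chosen on this contrast, nothing is read from these counts. With Benjamini-Hochberg adjustment over all 14410 genes, 0 of the 7 passed 0.05 in edgeR and 0 in DESeq2, and 0% of all genes did. DESeq2 gave 150 of all genes an unadjusted p under 0.05. The other 5 CD300 genes ranged from -0.21 for Cd300c to 0.07 for Cd300ld2, and 0 of them had an unadjusted p under 0.05. Cd300c had 3.29 ± 0.582 CPM in Pax7Cre and 2.87 ± 0.673 CPM in miR-501KO mice, Cd300e, an activating receptor of monocytes, 0.972 ± 0.365 and 0.983 ± 0.112 CPM, and Cd300ld2 0.864 ± 0.375 and 0.911 ± 0.159 CPM.

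**Figure D4:**
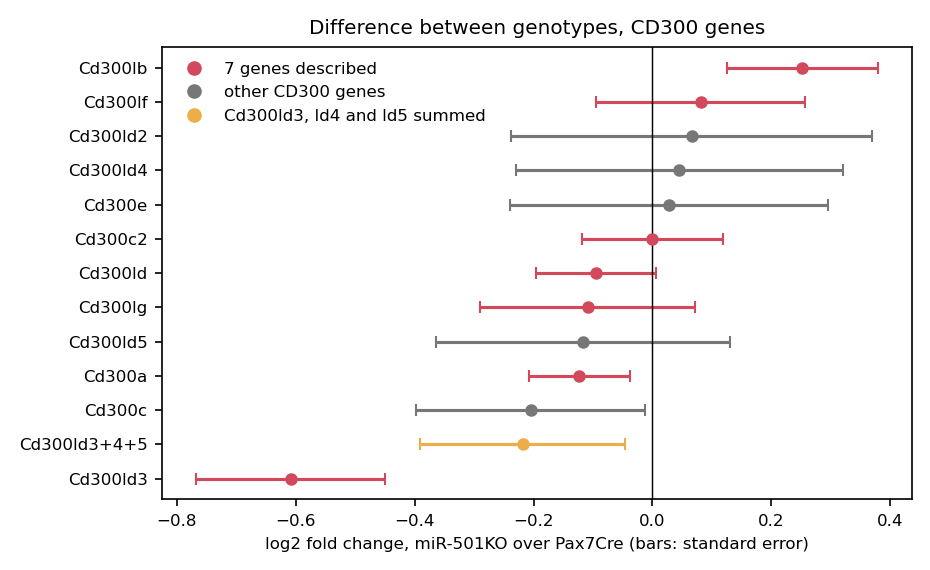
Points are log2 fold changes of miR-501KO over Pax7Cre from edgeR and bars their standard errors, for the 7 genes described, the other 5 CD300 genes and the summed Cd300ld3, Cd300ld4 and Cd300ld5. Cd300ld3 lies at -0.61, its sum with the near-copies at -0.22, and the other 11 genes between -0.21 and 0.25.

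The family signals through shared partners, whose genes formed a list of their own. Of 17 adaptors and kinases, 6 had a log2 fold change above 0 and 11 below, their median log2 fold change was -0.01, and 0 had an unadjusted p under 0.05 in edgeR, where 0.666% of all genes were lower and 0.382% higher at that p, so that 0 of 17 does not set the list apart. Tyrobp (DAP12) had 238 ± 46.2 CPM in Pax7Cre and 235 ± 27.5 CPM in miR-501KO mice, with a log2 fold change of -0.01 (SE 0.128), and Fcer1g (Fc receptor gamma chain) had 216 ± 38.1 and 225 ± 33.4 CPM, with 0.06 (SE 0.132). Of the 4 phosphatases that inhibitory tails recruit, 2 were higher and 2 lower, between -0.05 and 0.04, with Inppl1 (SHIP-2) at 175 ± 27.7 and 180 ± 11.9 CPM and Ptpn11 (SHP-2) at 128 ± 8.47 and 128 ± 9.93 CPM.

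Of 16 other receptors for the lipids of dying cells and proteins that bridge to them, 9 were higher and 7 lower, with a median of 0.01, and 0 had an unadjusted p under 0.05 in edgeR. At that p 0.666% of all genes were lower and 0.382% higher, so that 0 of 16 does not set the list apart. In DESeq2's Wald test Gas6 was lower with an unadjusted p of 0.0468, where 150 of all genes had a p under 0.05. The scavenger receptors Lrp1 (643 ± 172 and 660 ± 63.7 CPM) and Stab1 (313 ± 95.0 and 290 ± 45.6 CPM) were the most abundant. Of 33 other paired myeloid receptors tested, 19 were higher and 14 lower, with a median of 0.02, and 1 in each direction had an unadjusted p under 0.05, against 0.666% of all genes lower and 0.382% higher. The most abundant were Sirpa (326 ± 44.2 CPM in Pax7Cre and 333 ± 30.5 CPM in miR-501KO mice) and Fcgr3 (144 ± 19.9 and 140 ± 12.2 CPM). Clec10a, a lectin of macrophages and dendritic cells, had 25.8 ± 3.26 CPM in Pax7Cre and 20.3 ± 1.17 CPM in miR-501KO mice, with a log2 fold change of -0.35 (SE 0.093). Lilra5, an activating leukocyte receptor, was below 1 CPM in every mouse (0.158 to 0.528 CPM in Pax7Cre, 0.530 to 0.841 CPM in miR-501KO), and all deleted mice lay above all controls, as in 0.0625% of all genes, with a log2 fold change of 0.84 (SE 0.336). In these lists too, 0 genes passed with adjustment over all genes in either tool.

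Of 89 cell type marker and fiber genes tested, 1 was lower with an unadjusted p under 0.05 (0.666% of all genes), and 0 were higher (0.382% of all genes). It was Cd209a of dendritic cells, with 11.3 ± 1.87 CPM in Pax7Cre and 8.74 ± 1.63 CPM in miR-501KO mice. The median log2 fold change was 0.01 over the 15 macrophage markers, -0.06 over 8 monocyte markers, 0.03 over 10 dendritic cell markers, -0.21 over 6 mast cell markers, -0.07 over 6 neutrophil markers, -0.06 over 12 endothelial markers and 0.0013 over 6 capillary endothelial markers. The most abundant markers were Lyz2 and Mpeg1 of macrophages, Ccr2 and Nr4a1 of monocytes, Irf8 and Itgax of dendritic cells, Kit and Cma1 of mast cells, Csf3r and Mmp9 of neutrophils, Cdh5 and Pecam1 of endothelium and Aqp1 and Gpihbp1 of capillaries, and the genotypes overlapped for each. The median was 0.12 over 2 B cell markers, -0.07 over 6 T and NK cell markers, 0.08 over 10 mature fiber genes and 0.03 over 8 regenerating fiber and progenitor genes, led by Cd79b and Cd79a, Klrb1c and Cd247, Acta1 and Ckm, and Myh8 and Myh3, again with overlapping genotypes.

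Whether CD300 genes vary with the cells that carry them was asked over the 10 mice, with every value centred on the mean of its genotype, which removes the contrast that chose the set. The macrophage score was the mean log2 CPM of the 15 macrophage markers and the endothelial score that of the 12 endothelial markers, and neither contains a CD300 gene. All 12 genes were set against both scores, 24 relations in all, with an exact two-sided permutation test within genotype, and 2 of 24 had an unadjusted p under 0.05 for either coefficient. After Benjamini-Hochberg adjustment 0 of 24 passed, the smallest adjusted p being 0.107 for Pearson's r and 0.0833 for Spearman's rho.

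Cd300lg and the endothelial score gave the highest coefficient, with Pearson's r = 0.834 (exact permutation p = 0.005, adjusted p = 0.107) and Spearman's rho = 0.83 (exact permutation p = 0.00347, adjusted p = 0.0833). Without Pax7Cre mice 2 and 4, which lie farthest from the median score, r was 0.524. These mice also had the highest and the lowest mature fiber score, 12.03 and 10.4. The relation of Cd300lg to the mature fiber score was not tested. The relation of Cd300lg to the macrophage score was negative, r = -0.503 (exact permutation p = 0.298, adjusted p = 0.542). This r was -0.771 without Pax7Cre mouse 1 and -0.228 without Pax7Cre mouse 2.

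Of the myeloid members, Cd300c2 had the highest Pearson coefficient with the macrophage score and Cd300lf the highest Spearman coefficient. Cd300c2 had r = 0.709 (exact permutation p = 0.00889, adjusted p = 0.107) and rho = 0.636 (exact permutation p = 0.0636, adjusted p = 0.509). Its r was 0.548 without Pax7Cre mice 1 and 4, the farthest from the median of that score, and 0.465 without Pax7Cre mouse 1 alone. Cd300lf had r = 0.64 (exact permutation p = 0.085, adjusted p = 0.386) and rho = 0.733 (exact permutation p = 0.0455, adjusted p = 0.509), and its r was 0.435 without the same 2 mice. Cd300a had r = 0.5 (exact permutation p = 0.123, adjusted p = 0.423) and Cd300lb r = 0.448 (exact permutation p = 0.339, adjusted p = 0.542). Leaving out Pax7Cre mouse 2 took Cd300a to 0.31, and leaving out Pax7Cre mouse 4 took Cd300lb to 0.175. Cd300ld had r = 0.0983 (exact permutation p = 0.827, adjusted p = 0.946), and its sign changed when Pax7Cre mouse 2 or 5 was left out. Cd300ld3 had r = 0.455 (exact permutation p = 0.273, adjusted p = 0.542), which rested on 2 mice: without Pax7Cre mice 1 and 4 it was -0.135.

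**Figure D5:**
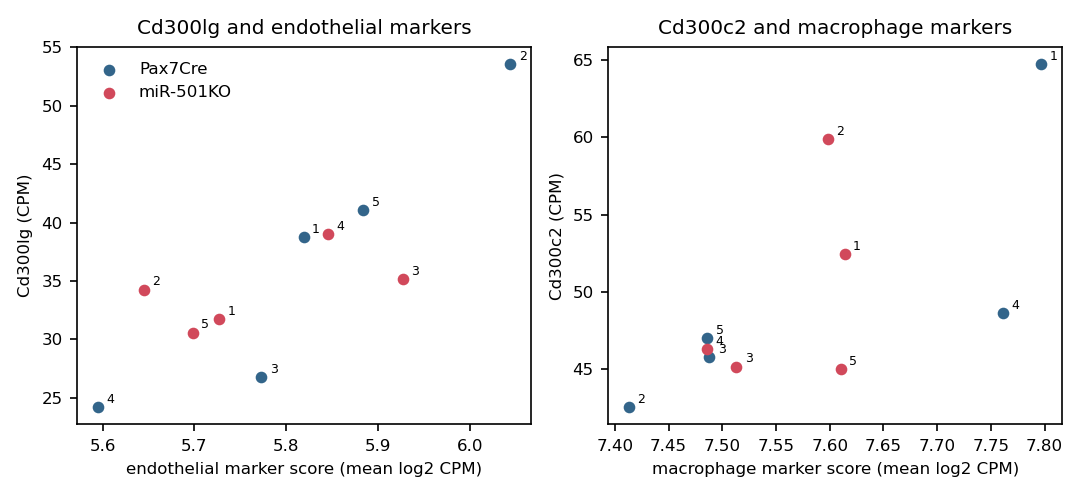
CPM of Cd300lg against the endothelial score (left) and of Cd300c2 against the macrophage score (right), both scores as mean log2 CPM of their markers, with each point a numbered mouse colored by genotype. Pax7Cre mouse 2 is the highest in both measures on the left (53.6 CPM, score 6.044) and Pax7Cre mouse 1 on the right (64.7 CPM, score 7.797).

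The genes whose genotype-centred log2 CPM was most like that of each member were taken from 13551 genes outside the family with a mean of at least 1 CPM. For Cd300ld3 these were Mab21l1 (r = 0.898) and Qtrt1 (r = 0.888), the lowest coefficients among the 7 members. Cd300lg was most like Hras (r = 0.981) and Myadml2 (r = 0.958), Cd300lf like Ube2l3 (r = 0.981) and Slc44a4 (r = 0.955), and Cd300a like Pdap1 (r = 0.971) and Fbxo36 (r = 0.946). Cd300c2 was most like Kctd20 (r = 0.969) and Rplp0 (r = 0.967), Cd300ld like Efnb3 (r = 0.968) and Arrdc4 (r = 0.944), and Cd300lb like Slit1 (r = 0.948) and Prmt2 (r = 0.938). These are the extremes of many coefficients over 10 mice that share libraries and depth, and they are given as a description. For the CD300 genes outside the 7 they were Lilra6 (r = 0.903) and Ccdc162 (r = 0.873) for Cd300c, Gpank1 (r = 0.963) and Hoxa11 (r = 0.941) for Cd300e, Iqsec1 (r = 0.957) and Calcoco1 (r = 0.953) for Cd300ld2, Scly (r = 0.938) and Mcmbp (r = 0.919) for Cd300ld4, and Ap2a2 (r = 0.972) and Akt1 (r = 0.949) for Cd300ld5. None of these genes is a macrophage or endothelial marker of the lists.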

How the data were processed

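RNA-seq counts of 10 TA muscles were used. The authors deposited raw counts, whole numbers of reads per Ensembl gene and mouse, with no normalization. According to the submitters' processing notes the genome build was GRCm38.p5 and the tools were STAR, featureCounts and R 3.5.1. Strand and multi-mapping settings were not given in the sources used here.

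Genes were named from GENCODE M21 (25664 of 25700 IDs matched). The study's methods name another annotation release for the counting, so exon lengths in RPKM and the shared 100-base stretches are those of M21 and may differ from the exons counted. In R 4.3.3, edgeR 4.0.16 (TMM, filterByExpr with a minimum count of 10 and a minimum total count of 15, quasi-likelihood test, Benjamini-Hochberg adjustment) was fitted on all 10 mice with genotype as the single factor. CPM are counts per 1000000 after TMM scaling, and RPKM are CPM per kilobase of the union of exons. Log2 CPM for scores used a prior count of 2. The alternatives were DESeq2 1.42.0, its size factors alone, filtering off, a stricter filter (10 or more counts in all mice), blocking on the replicate number, a macrophage covariate and leaving out each mouse. The sums of near-identical genes, and the checks of overlap on other scales, were added after seeing the data. The steps were tested on simulated data.

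The 7 members and all gene lists were chosen with earlier results of these data known. Named are all CD300 genes, in each list the genes with an unadjusted p under 0.05 in edgeR (at most 3) and the 2 most abundant, and the 2 genes most similar to each CD300 gene. Gas6 was added for its unadjusted p in DESeq2. The names Cd300h, Cd300ld6 and Cd300le were not found in the annotation. Totals of 18609222 to 24753258 counts set the precision, and intervals cover counting error only. Mice of a genotype differed by at least 9.51 in chi-square per degree of freedom, more than counting noise gives. By the labels the replicates are separate mice, and the study calls the controls littermates, without saying which mice share a litter. The sequences of proteins were not used here.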

Additional observations from a re-analysis of the deposited data

Results flagged for a closer look

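Among 12 CD300 genes, the sum of Cd300ld3, Cd300ld4 and Cd300ld5 and 3 marker scores, each searched in both genotypes (32 groups of 5 mice), 1 mouse lay farther from the others than the critical ratio of 0.71 between its gap and the range of its group. It was Pax7Cre mouse 1 for Cd300c2, with 64.7 CPM against 42.6 to 48.7 CPM in the other 4 Pax7Cre mice, a ratio of 0.725. Chance flags about 1 group in 20, that is 1.6 of the 32. The same mouse had the highest macrophage score, and the part of that score in this value was not tested.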

How the results depend on the processing

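With DESeq2's size factors, no filter, a filter of at least 10 counts in every mouse, DESeq2's Wald test, the replicate block, the macrophage covariate or any mouse left out, 0 CD300 genes and 0 other listed genes passed the adjusted p of 0.05. The log2 fold change of Cd300ld3 was between -0.62 and -0.58 under the first 6 of these and between -0.66 and -0.54 with a mouse left out. It moved to -0.22 when its counts were summed with Cd300ld4 and Cd300ld5 and to -0.19 when Cd300ld2 was added, both chosen after seeing the data. The sum ranged from -0.30 to -0.05 with a mouse left out, the latter without Pax7Cre mouse 4. The number of CD300 genes at an unadjusted p under 0.05 was 1, and 2 with the macrophage covariate, where Cd300lb (0.28) joined Cd300ld3. With the near-copies summed it was 0 in edgeR on all mice with genotype alone, the sum having an unadjusted p of 0.226, or 0.281 with Cd300ld2 added. In other summed fits Cd300lb was under 0.05 with the covariate, without Pax7Cre mouse 4 or without miR-501KO mouse 5. Cd300a was so without miR-501KO mouse 2. With a mouse left out and no genes summed it was 1 to 2: Cd300lb joined without Pax7Cre mouse 4 (0.36) or miR-501KO mouse 5 (0.31), and Cd300a without miR-501KO mouse 2 (-0.19). Over all genes, 55 were higher and 96 lower at that p in the main fit, against 146 and 137 with the covariate. The numbers were 228 and 242 without Pax7Cre mouse 4, 48 and 84 without miR-501KO mouse 5 and 49 and 102 without miR-501KO mouse 2. The cause of these changes was not tested. Signs changed under at least 1 alternative for Cd300c2, Cd300lf, Cd300lg, Cd300e, Cd300ld2, Cd300ld4 and Cd300ld5, whose differences were within their standard errors, and in 0 alternatives for Cd300a, Cd300c, Cd300lb, Cd300ld and Cd300ld3. Sizes still moved with a mouse left out: Cd300ld ranged from -0.14 to -0.02 (without Pax7Cre mouse 3), Cd300c from -0.30 to -0.08 (without miR-501KO mouse 3), Cd300a from -0.19 to -0.09 and Cd300lb from 0.17 to 0.36.

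The correlation of Cd300ld with the macrophage score was -0.142 to 0.376 with a mouse left out, and the other reported correlations kept their sign. Cd300e and Cd300ld2 did not pass the filter of at least 10 counts in every mouse and have no value there. Equal mouse numbers were not taken as pairs, since no label says that they are and not every pair correlated above 0.1: the deviations of same-numbered mice correlated at 0.337, -0.154, 0.156, -0.305 and 0.204, above 0.1 in 3 of 5 pairs, and 5 of 10 mice correlated best with their own number. The replicate block moved the genes at an unadjusted p under 0.05 from 55 to 87 higher and from 96 to 102 lower, with Cd300ld3 at -0.60. Counts of 36 to 83 reads per mouse limit Cd300ld3.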
